A study of Mus musculus with 2 samples.

Results

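The guanylate-binding proteins are a family of large GTPases, and 9 of the 31253 genes in the deposited matrices belong to the set described here: Gbp2, Gbp2b, Gbp3, Gbp4, Gbp5, Gbp6, Gbp7, Gbp8 and Gbp9. They were chosen by gene symbol, and all 9 had UMIs (unique molecular identifiers, each standing for 1 captured RNA molecule) in both libraries. The study sorted the immune cells of mouse gliomas by flow cytometry as living CD45.2+ CD45.1- cells, which the labels call endogenous, and read their RNA cell by cell with the BD Rhapsody system. There was 1 library from tumours treated with EM, named 72 h in its title, and 1 library from tumours treated with PBS (phosphate-buffered saline), for which no time is given. The labels do not spell out EM, and they give neither the mouse strain and age nor the number of animals behind a library. With 1 library per treatment there is no replicate check on any difference below, no test was made, and every interval and limit covers counting error only.

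Guanylate-binding proteins are among the genes that interferons induce most strongly, above all interferon gamma, which acts in part through the transcription factor IRF1, and to a varying degree type I interferons, which act through STAT2 and IRF9 among others. The proteins are related to dynamins: they bind GTP, assemble on membranes and coat the vacuoles of intracellular microbes or the microbes themselves. In macrophages they help to break such vacuoles open and to bring bacterial products to inflammasomes, and in tumours their RNA is used as a readout of interferon exposure.

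In mouse the family sits in 2 blocks. In the GENCODE annotation of GRCm38, the assembly also called mm10, Gbp5 (chr3:142493978-142522344), Gbp7 (chr3:142530342-142550149), Gbp3 (chr3:142560026-142573209), Gbp2b (chr3:142594847-142619179) and Gbp2 (chr3:142620602-142638008) lie side by side on the forward strand. Gbp8 (chr5:105014150-105139540), Gbp9 (chr5:105077630-105139539), Gbp4 (chr5:105115767-105139586) and Gbp6 (chr5:105270702-105293698) lie on the reverse strand of chromosome 5. The spans of Gbp4, Gbp8 and Gbp9 overlap on the same strand, so reads in shared stretches could be counted for the wrong gene, and their values are uncertain to that extent. Of the 50-base stretches in the annotated transcripts of Gbp6, 70.7% also occur in another gene, most often Gm43302, which makes Gbp6 the least certain member. The same share was 18.1% for Gbp8, 12.7% for Gbp7, 8.05% for Gbp9 and 7.7% for Gbp4. It lay between 1.44% (Gbp5) and 3.75% (Gbp3) for the other 4 members, and was 2.03% for Gbp2 and 1.84% for Gbp2b, whose shared stretches are with each other.

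The promoters of the chromosome 3 members are shown because Gbp2 and Gbp2b, neighbours that hold the same response element letters, had the highest and the lowest log2 ratio of EM to PBS in the monocyte/macrophage class as a whole (1.40 and -5.85). Of the 9 members, 5 were matched in the RefSeq promoter table (GRCm38.p6), and Gbp4, Gbp6, Gbp8 and Gbp9 were not. Capitals mark the letters of the interferon-stimulated response element (ISRE, searched as GAAA, any pair of letters and GAAA) and of the gamma-activated site (GAS, searched as TTCNNNGAA), on both strands. All ISRE matches are on the reverse strand, so they appear as TTTC, a pair of other letters and TTTC. The GAS letters read alike on both strands. Each stretch is given 5′ to 3′ on the forward strand and ends at or before the RefSeq start of the gene. The GENCODE spans of Gbp2, Gbp3 and Gbp5 begin upstream of those RefSeq starts. The end of the Gbp2 stretch, its ISRE match included, thus lies inside the annotated gene. So do the end of the Gbp3 stretch, past its ISRE letters, and the whole Gbp5 stretch. For Gbp3 there were 2 promoter entries, of which the first by position is shown.
Gbp2, chr3:142620413-142620616: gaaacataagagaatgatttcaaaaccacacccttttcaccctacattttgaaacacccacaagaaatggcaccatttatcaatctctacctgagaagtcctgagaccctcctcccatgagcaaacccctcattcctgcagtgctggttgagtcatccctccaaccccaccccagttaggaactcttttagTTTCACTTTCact
Gbp2b, chr3:142594597-142594846: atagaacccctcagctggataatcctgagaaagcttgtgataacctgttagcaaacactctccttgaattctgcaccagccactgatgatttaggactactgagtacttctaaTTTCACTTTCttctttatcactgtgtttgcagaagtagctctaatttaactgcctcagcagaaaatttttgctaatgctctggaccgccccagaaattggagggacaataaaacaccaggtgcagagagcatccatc
Gbp3, chr3:142559794-142560040: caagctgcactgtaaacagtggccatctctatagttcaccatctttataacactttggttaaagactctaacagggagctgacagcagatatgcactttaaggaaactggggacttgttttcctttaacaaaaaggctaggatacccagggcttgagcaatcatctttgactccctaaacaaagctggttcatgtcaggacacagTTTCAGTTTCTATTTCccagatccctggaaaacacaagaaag
Gbp5, chr3:142496684-142496914: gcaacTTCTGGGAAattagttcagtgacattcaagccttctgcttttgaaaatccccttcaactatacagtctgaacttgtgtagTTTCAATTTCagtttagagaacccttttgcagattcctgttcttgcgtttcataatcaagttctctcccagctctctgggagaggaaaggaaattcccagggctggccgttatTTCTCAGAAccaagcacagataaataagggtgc
Gbp7, chr3:142530086-142530335: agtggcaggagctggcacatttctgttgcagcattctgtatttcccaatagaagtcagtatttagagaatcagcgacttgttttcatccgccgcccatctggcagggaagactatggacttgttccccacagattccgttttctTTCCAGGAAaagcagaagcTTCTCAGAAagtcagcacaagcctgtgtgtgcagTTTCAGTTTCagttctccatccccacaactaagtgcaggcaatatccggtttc
The ISRE letters stood in 5 of these 5 promoters, against 2.98% of 32851 promoters in the table with the same 250 bases searched. Gbp2 and Gbp2b hold the identical match TTTCACTTTC, at positions -59 to -50 in Gbp2 and -137 to -128 in Gbp2b, counted from the base before the start as -1. Gbp3 holds a pair of overlapping matches between positions -45 and -30. Gbp5 and Gbp7 also hold the GAS letters, at 2 places each, which 7.02% of all promoters hold at least once. Both motifs together occur in 0.332% of all promoters. No ISRE match overlaps a GAS match, and a match of letters is a description of the sequence, not of binding.

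The EM library held 8039 barcodes with 19385631 UMIs (median 2006 per barcode) and the PBS library 8333 barcodes with 45043934 UMIs (median 4109). After filtering, 7967 EM and 7756 PBS cells were sorted into classes by the marker genes found in each cell. Cells with markers of more than 1 lineage (343 EM and 403 PBS) or with too few markers (190 EM and 538 PBS) were set aside. Trac, 1 of the T cell markers, had a UMI in 89.1% of EM and 94.8% of PBS T cells. Outside the class it had a UMI in 10.96% of EM and 9.21% of PBS cells. Gpr34, a microglia marker, had a UMI in 17.4% of EM and 36.5% of PBS microglia. The classes were set by these same genes, so such shares describe the sorting and do not test the class names. Of the barcode sequences, 66 occurred in both libraries. The depth gap was widest in the myeloid classes: monocyte/macrophage cells had a median of 930 UMIs in EM and 8678 in PBS, and T cells 2053 in EM and 4385.5 in PBS. Levels are therefore given as CPM, the UMIs of a gene scaled to the same total for the summed UMIs of every class, and shares of cells with a UMI are given as measured and after every cell was reduced to 1000 UMIs at random. The female-specific RNA Xist was at 384 CPM in EM and 10.6 CPM in PBS, and the Y-linked Ddx3y at 4.46 CPM in EM and 192 CPM in PBS, so the sex of the animals and the treatment cannot be told apart.

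**Figure D1:**
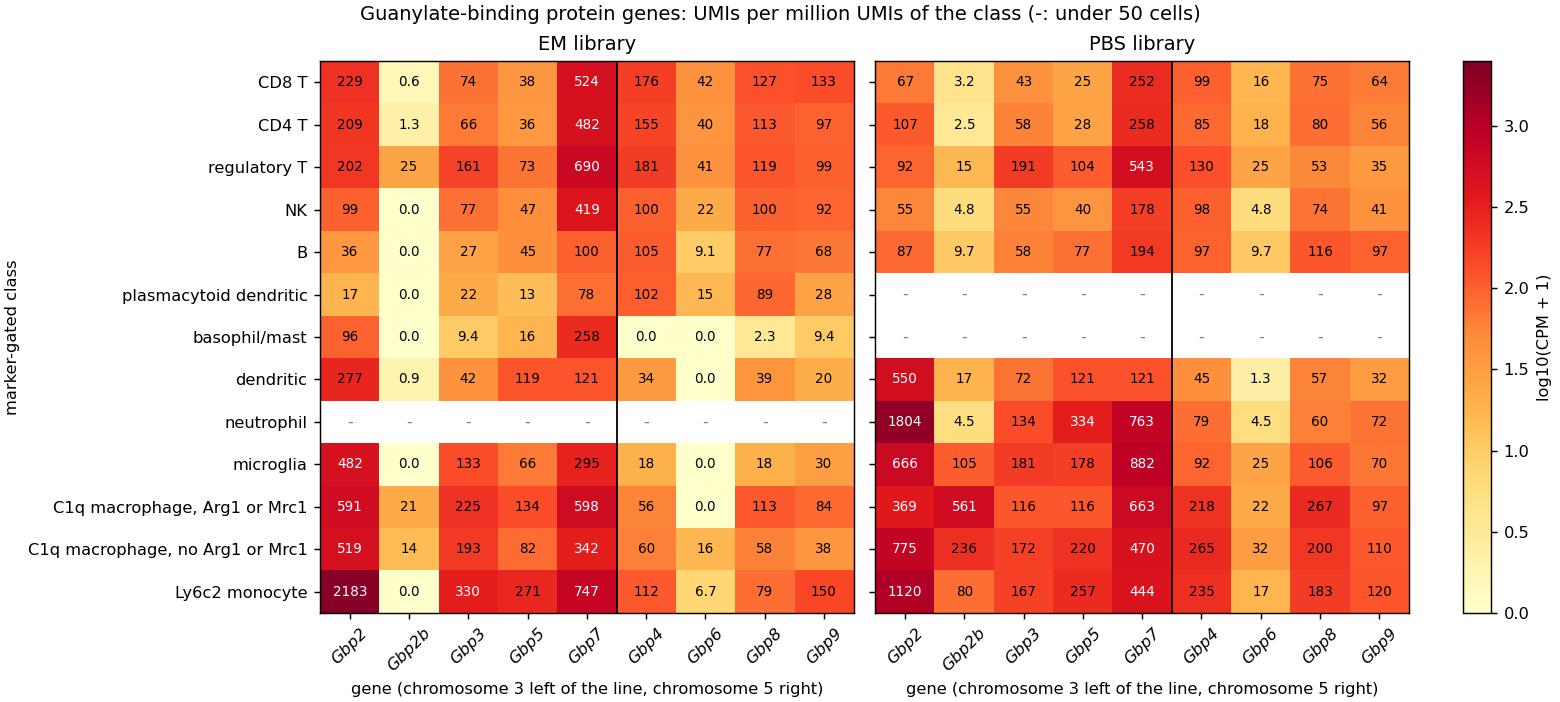
Level of each of the 9 genes (columns) in each marker-gated immune class (rows), EM left and PBS right, as CPM of the summed UMIs of the class on a log colour scale; a dash marks a class with under 50 cells in that library. Darker cells are higher: Gbp2b is at 561 CPM in PBS C1q macrophages with Arg1 or Mrc1 and at 21.1 CPM in the EM ones, and Gbp2 is darkest in EM Ly6c2 monocytes (2183 CPM) and PBS neutrophils (1804 CPM).

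T cells were the most numerous class, with 5239 EM and 4074 PBS cells, and all 9 members stood higher in EM than in PBS T cells as a whole. The members at least 2-fold higher were Gbp2, Gbp6 and Gbp7, thus 3 of 9, where 5.34% of the 13056 genes with at least 20 UMIs were at least 2-fold higher. No member was 2-fold lower, against 11.4% of all genes. Gbp2, which in mouse coats the vacuole of Toxoplasma, was at 226 CPM in EM and 73.8 CPM in PBS T cells, a log2 ratio of 1.62 (95% interval 1.53 to 1.71). Cells with a Gbp2 UMI made up 18.2% of EM and 7.25% of PBS T cells at 1000 UMIs, and 31.0% and 24.6% at full depth. Gbp7, which in mouse macrophages has been linked to the assembly of the phagocyte oxidase and to control of Toxoplasma, was at 547 CPM in EM and 261 CPM in PBS (log2 ratio 1.07, 1.01 to 1.12).

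The share of T cells with a Gbp7 UMI was 38.7% in EM and 22.7% in PBS at 1000 UMIs, and 58.2% in EM and 59.3% in PBS at full depth, so its order turned with depth. Gbp6, with 556 EM and 333 PBS UMIs, was at 43.5 CPM in EM and 15.9 CPM in PBS (log2 ratio 1.46, 1.26 to 1.66). The other 6 members had log2 ratios from 0.35 (Gbp2b, -0.19 to 0.88) to 0.96 (Gbp9, 0.85 to 1.06), with Gbp5 at 0.64, Gbp3 at 0.68, Gbp8 at 0.72 and Gbp4 at 0.81. The 9 members together made 1368 CPM in EM and 672 CPM in PBS T cells, a log2 ratio of 1.03. The median log2 ratio of the members was 0.81, beside -0.13 for all genes tested in T cells.

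The T cells of the libraries fell largely into different expression clusters. Cluster 0 held 34.8% of EM and 3.17% of PBS T cells and cluster 5 held 0.935% of EM and 21.8% of PBS T cells, and the shares over all clusters overlapped by 33.9%. In the 5 clusters with 100 or more T cells of each library, the ratios were mostly smaller than in the whole class. Gbp2 was higher in EM in 5 of 5 clusters, with log2 ratios of 0.52, 0.66, 0.79, 0.57 and 1.61 in clusters 0, 1, 2, 6 and 8, and so was Gbp6 (0.54, 0.32, 0.43, 1.47 and 2.22). Gbp7 was higher in 4 of 5 (0.40, 0.76, 0.37, -0.23 and 1.01). The summed level of the 9 members had ratios of 0.29, 0.41, 0.33, -0.038 and 1.10 in the same order. Of the members past 2-fold in the whole class, Gbp2 was thus past it in 1, Gbp6 in 2 and Gbp7 in 1 of the 5 clusters. Gbp9 was also past 2-fold higher in EM in clusters 2 (1.37) and 8 (1.56), and Gbp4 (1.26) and Gbp8 (1.37) in cluster 8. The share of all genes past 2-fold within a cluster was not computed. Members and other interferon targets were among the genes the clusters could be built on, so a change within T cells and a different mix of T cells cannot be told apart.

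CD8 T cells, the largest T cell subset, had 4 members at least 2-fold higher in EM (4.19% of all genes), namely Gbp2 (log2 ratio 1.78), Gbp6 (1.43), Gbp7 (1.06) and Gbp9 (1.05). There was 1 member lower (13.4% of all genes), Gbp2b, which was at 0.58 CPM in EM and 3.24 CPM in PBS. RNA set free by macrophages and carried into the PBS CD8 T cells, estimated from macrophage markers found there, would give 4.18 CPM of Gbp2b. The PBS value was not above that estimate, and the source of its UMIs was not tested. In regulatory T cells, the FOXP3-bearing subset that restrains other T cells, 3 members were higher in EM, where 6.37% of all genes were: Gbp9 (log2 ratio 1.49), Gbp8 (1.15) and Gbp2 (1.14). In CD4 T cells without regulatory markers 1 of 8 members tested was, Gbp6 (1.18), against 4.47% of all genes. No member was 2-fold lower in regulatory T cells (5.86% of all genes were) or in these CD4 T cells (7.21%). Gbp3 stood higher in regulatory than in CD8 T cells in both libraries, at 161 CPM against 74.4 CPM in EM and at 191 CPM against 43.3 CPM in PBS, and the intervals of these subsets did not overlap in either library.

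In NK cells (508 EM and 237 PBS cells) Gbp6, Gbp7 and Gbp9 were at least 2-fold higher in EM, 3 of 8 members tested, where 5.34% of all genes were. Gbp7 was at 419 CPM in EM and 178 CPM in PBS NK cells (log2 ratio 1.23, 0.97 to 1.5), and at 1000 UMIs 31.3% of EM and 18.3% of PBS NK cells held a Gbp7 UMI (53.0% and 33.3% at full depth). Gbp9 was at 92.4 CPM in EM and 41.0 CPM in PBS (log2 ratio 1.17, 0.61 to 1.77). The Gbp6 value rests on 29 EM and 4 PBS UMIs and has a wide interval (log2 ratio 2.20, 0.69 to 4.17). Gbp2 stood at 0.83 and Gbp4 at 0.03 on the same scale, and Gbp2b had 0 UMIs in EM and 4 in PBS NK cells, too few for a ratio. The median of the members was 0.65, beside -0.10 for all genes tested. No member was 2-fold lower, against 8.5% of all genes. NK cells of both libraries sat in the same cluster, which held 99.2% of those in EM and 97.0% of those in PBS, and within it the ratios were 2.44 for Gbp6, 1.24 for Gbp7, 1.18 for Gbp9 and 1.10 for Gbp2.

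**Figure D2:**
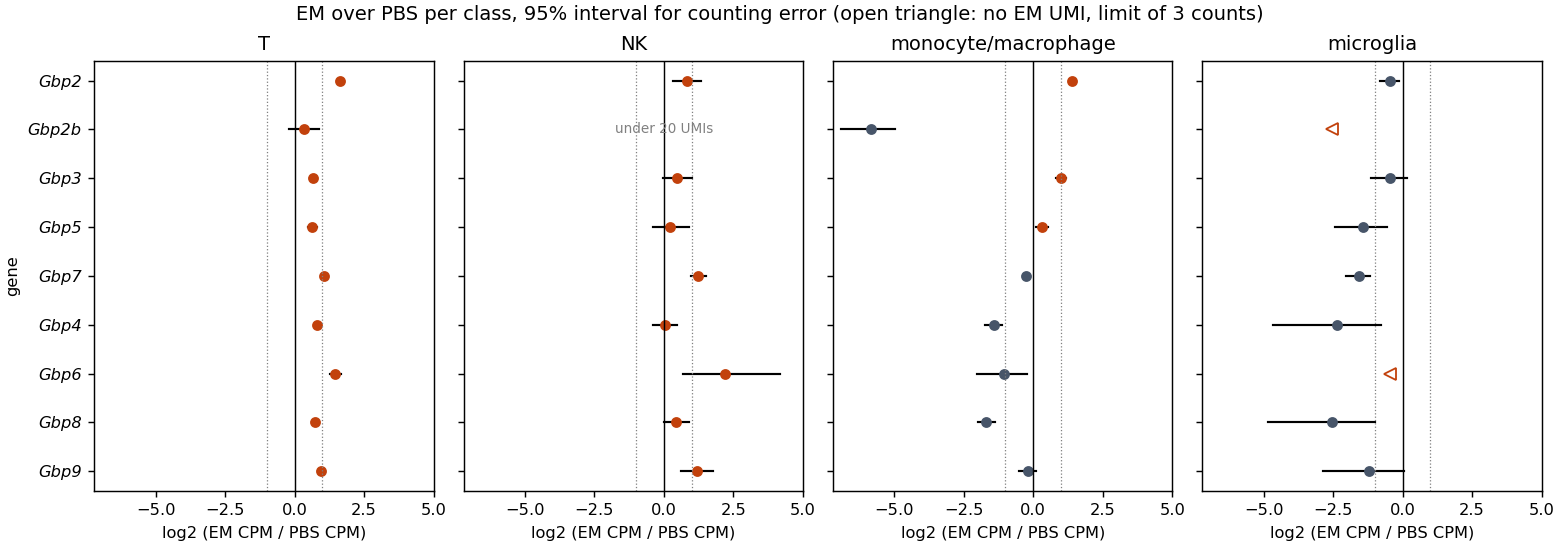
Log2 ratio of EM to PBS CPM (x axis) for each gene (y axis) in the 4 classes with at least 100 cells in both libraries; bars are 95% intervals for counting error, orange points lie above 0, grey points below 0, and dotted lines mark 2-fold. In T cells every point lies right of 0, from 0.35 to 1.62, whereas in monocyte/macrophage cells the points run from -5.85 (Gbp2b) to 1.40 (Gbp2).

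In monocyte/macrophage cells (775 EM and 1589 PBS cells) the summed level of the 9 members was nearly the same in the libraries, at 2370 CPM in EM and 2432 CPM in PBS (log2 ratio -0.04, -0.09 to 0.02). The sign of this small ratio turned with the setting, from -0.78 without Ly6c2 monocytes to 0.61 within 1 expression cluster (cluster 9). Single members went opposite ways. Gbp2 was at least 2-fold higher in EM (8.07% of all 11823 genes tested were), and Gbp2b, Gbp4, Gbp6 and Gbp8 were at least 2-fold lower (18% of all genes were), thus 1 of 9 and 4 of 9. Gbp3 was just short of the threshold, at 248 CPM in EM and 124 CPM in PBS, a log2 ratio of 0.998. Gbp5, which in mouse promotes NLRP3 inflammasome assembly, Gbp7 and Gbp9 had ratios of 0.31, -0.26 and -0.19 on that scale. The median of the members was -0.26, beside -0.19 for all genes tested.

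Markers of microglia, the macrophages that reside in the brain, summed to 921 CPM in EM and 142 CPM in PBS cells of this class, so the EM cells held more RNA of that type. In the cells of the class with no microglia marker, the log2 ratio was 1.17 for Gbp2 and 1.07 for Gbp3, and -5.31 for Gbp2b, -1.15 for Gbp4, -1.72 for Gbp6 and -1.36 for Gbp8. Whether a cell shows a microglia marker UMI depends on its depth, so this is not the same cut in both libraries. Relative to T cells themselves, the RNA of T cell markers in the class was at 1.23% in EM and 0.645% in PBS.

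The cells of this class, too, came from different clusters. Cluster 7 held 0 of the EM cells and 832 of the PBS cells, 52.4% of the PBS class. Cluster 12 held 47.4% of EM and 9.75% of PBS cells. Cluster 15, named microglia by its markers, held 30.3% of EM and 0.566% of PBS cells, and most EM microglia also lie there. The shares overlapped by 29.3%, and in 2 clusters both libraries had 100 or more cells of the class. In cluster 9 (140 EM and 474 PBS cells) Gbp2 was at 2109 CPM in EM and 819 CPM in PBS (log2 ratio 1.36), Gbp8 at 85.6 and 215 CPM (-1.33) and Gbp4 at 123 and 228 CPM (-0.89). Gbp2b had 0 UMIs there in EM and 1141 in PBS (-5.61 at the limit). In cluster 12 (367 EM and 155 PBS cells) Gbp2 was at 517 CPM in EM and 392 CPM in PBS (0.40) and Gbp2b at 27.7 and 554 CPM (-4.32), with Gbp4 at -0.96 and Gbp8 at -0.11. The gap of Gbp2b was thus wide within both clusters, Gbp2 was past 2-fold in 1 of them, Gbp8 in 1 and Gbp4 in neither. For the class as a whole, a change within a cell type and a different mix of cells cannot be told apart.

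Gbp2b, which older papers call Gbp1 and which takes part in attack on the Toxoplasma vacuole in mouse, showed the widest gap of the 9 in this class. It had 10 UMIs in EM and 7330 in PBS monocyte/macrophage cells, or 8.73 CPM and 504 CPM, a log2 ratio of -5.85 (-6.91 to -4.97). Of these cells, 1.16% in EM and 57.7% in PBS held a Gbp2b UMI, and 1.41% and 28.7% did at 1000 UMIs. The gap was present in each of the 3 subsets. Macrophages with C1q UMIs and with Arg1 or Mrc1, genes of alternatively activated macrophages, had 21.1 CPM in EM and 561 CPM in PBS (log2 ratio -4.73). Those with C1q but neither Arg1 nor Mrc1 had 13.9 CPM in EM and 236 CPM in PBS (-4.09). Ly6c2 monocytes were cells of the class with fewer than 2 C1q genes and at least 2 of Ly6c2, Ccr2, Chil3 and Plac8. A Ly6c2 UMI itself was not required. These monocytes had 0 Gbp2b UMIs in EM and 77 in PBS, so the level was at least 11.9-fold lower with the limit of 3 counts for the EM cells.

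In PBS, monocyte/macrophage cells made up 20.5% of the cells and held 91.8% of all Gbp2b UMIs. In EM 76 Gbp2b UMIs were found in the whole library, and 41 of them, 53.9%, were in regulatory T cells, which were 8.42% of its cells. That is 24.9 CPM (17.8 to 33.7) in EM regulatory T cells, against 0.58 CPM in EM CD8 T cells. Macrophage RNA carried over at the rate of macrophage markers would give 0.0756 CPM there. The PBS regulatory T cells were at 15.04 CPM (6.88 to 28.6), where carried-over RNA would give 3.88 CPM, and their interval overlaps that of EM. Cells with a Gbp2b UMI were 3.13% of EM and 3.76% of PBS regulatory T cells, and 2.20% and 3.03% at 1000 UMIs. In CD8 T cells they were 0.0755% in EM and 1.60% in PBS, and 0.0384% and 0.291% at 1000 UMIs, with a median depth of 2200 UMIs in EM and 4614 UMIs in PBS.

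**Figure D3:**
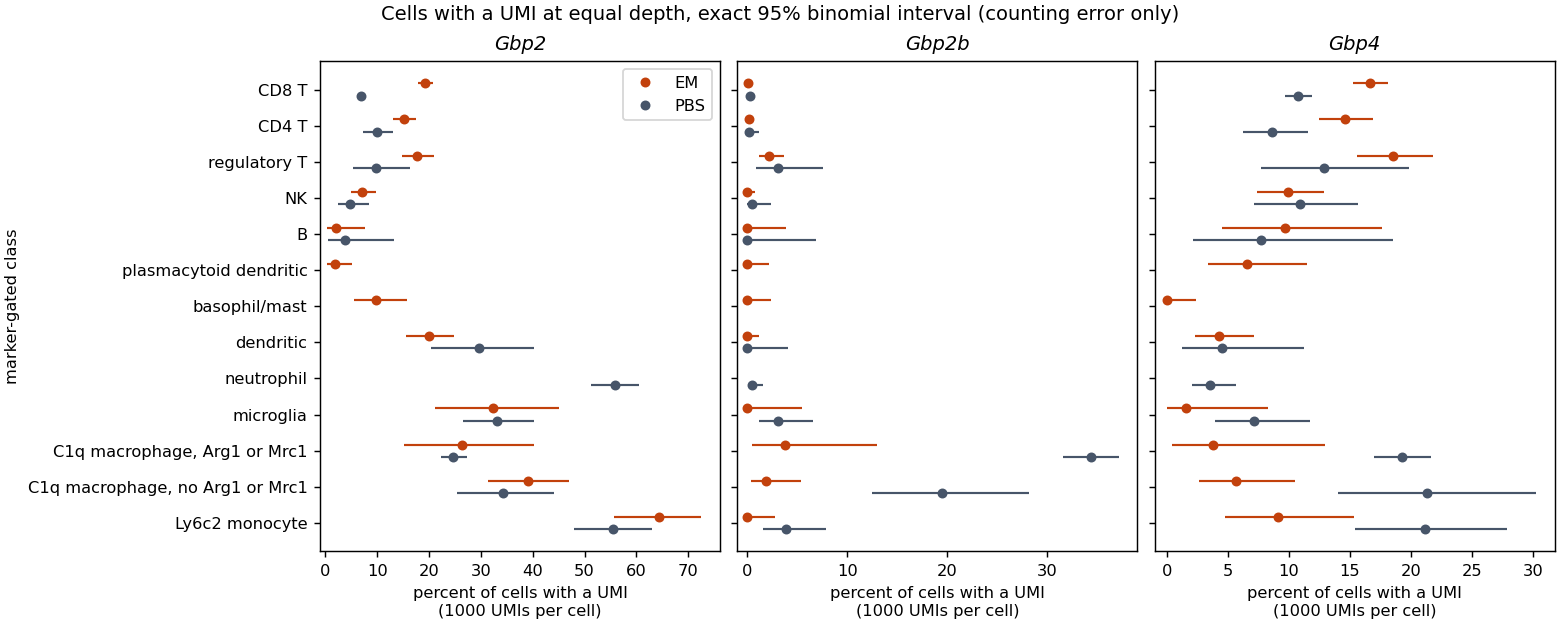
Share of cells with at least 1 UMI of Gbp2, Gbp2b and Gbp4 after every cell was reduced to 1000 UMIs (x axis, percent, exact 95% binomial intervals), by class (y axis), EM above PBS in each class. Among C1q macrophages with Arg1 or Mrc1, Gbp2b-positive cells are 3.77% in EM and 34.3% in PBS, while Gbp2-positive cells are 26.4% and 24.7%.

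Gbp2 was at 1165 CPM in EM and 442 CPM in PBS monocyte/macrophage cells, with 1334 and 6432 UMIs (log2 ratio 1.40, 1.31 to 1.48). The share of cells with a Gbp2 UMI was 46.3% in EM and 29.7% in PBS at 1000 UMIs, and 38.6% and 68.0% at full depth, so its order turns with depth. The difference in CPM moved with the make-up of the class. Ly6c2 monocytes were 17.5% of the EM and 11.4% of the PBS cells of the class, but gave 38.9% of its UMIs in EM and 6.61% in PBS, and 72.9% and 16.8% of its Gbp2 UMIs. Without them Gbp2 was at 516 CPM in EM and 394 CPM in PBS, a log2 ratio of 0.39, and with equal weight for each cell the ratio of the whole class was 0.60.

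Within subsets, Gbp2 was at 2183 CPM in EM and 1120 CPM in PBS Ly6c2 monocytes (log2 ratio 0.96). It was at 591 CPM in EM and 369 CPM in PBS macrophages with C1q and Arg1 or Mrc1 (0.68), and at 519 CPM in EM and 775 CPM in PBS macrophages with C1q alone (-0.58). Gbp2 was thus lower in EM in 1 of the 3 subsets. Whether a cell shows an Arg1 or Mrc1 UMI depends on its depth, so the split between the C1q subsets is not the same cut in both libraries.

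Of the chromosome 5 members, Gbp4 and Gbp8 were lower in EM in each of the 3 subsets. Gbp4 was at 82.1 CPM in EM and 220 CPM in PBS monocyte/macrophage cells (log2 ratio -1.42), and its ratio was -1.07 in Ly6c2 monocytes, -1.95 in the C1q cells with Arg1 or Mrc1 and -2.15 in those without. Gbp8 was at 79.5 CPM in EM and 256 CPM in PBS (-1.68), with subset ratios of -1.22, -1.24 and -1.79 in the same order. At 1000 UMIs, 6.50% of EM and 19.8% of PBS monocyte/macrophage cells held a Gbp4 UMI (8.65% and 58.4% at full depth). Gbp6 had 12 UMIs in EM and 318 in PBS, at 10.5 CPM and 21.9 CPM (-1.06, -2.03 to -0.24).

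Microglia markers summed to 44.9 CPM in EM and 91.5 CPM in PBS Ly6c2 monocytes, to 570 CPM in EM and 142 CPM in PBS C1q cells with Arg1 or Mrc1, and to 1762 CPM in EM and 179 CPM in PBS C1q cells without. These last values are 36.4% and 11.6% of the level in microglia. Counted by subset, 3 of 8 members tested in Ly6c2 monocytes were at least 2-fold lower in EM (25.2% of all genes were), namely Gbp2b, Gbp4 and Gbp8. The same 3 of 9 were lower in the C1q cells with Arg1 or Mrc1 (15.7% of all genes), and 6 of 9 in the C1q cells without (21.8%), where Gbp5 (-1.43), Gbp6 (-1.02) and Gbp9 (-1.54) came in addition. No member was 2-fold higher in any of the 3 subsets, where 8.2%, 12.6% and 8.96% of all genes were, in the order above. Summed over the 9 members, the level was 3879 CPM in EM and 2622 CPM in PBS Ly6c2 monocytes (0.56), 1821 CPM in EM and 2429 CPM in PBS C1q cells with Arg1 or Mrc1 (-0.42), and 1320 CPM in EM and 2479 CPM in PBS C1q cells without (-0.91).

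**Figure D4:**
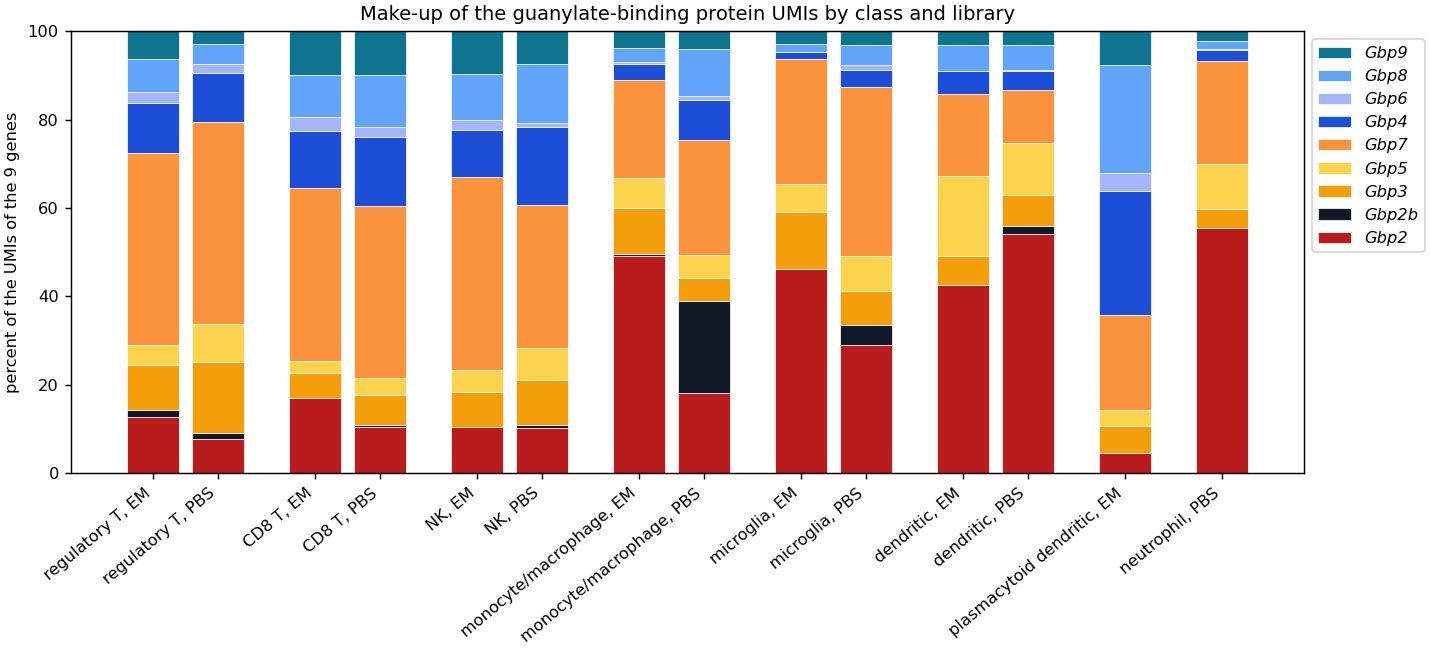
Percent of all UMIs of the 9 genes that fall on each gene (stacked bars, y axis), by class, EM left of PBS. In monocyte/macrophage cells Gbp2b holds 0.37% of the family's UMIs in EM and 20.7% in PBS, and Gbp2 49.2% and 18.2%, while Gbp7 in CD8 T cells holds 39.0% and 39.1%.

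The make-up of the family's RNA in monocyte/macrophage cells differed between the libraries. Gbp2 held 49.2% of its UMIs in EM and 18.2% in PBS, Gbp2b 0.37% and 20.7%, and the 4 chromosome 5 members together 10.9% and 24.6%. In T cells the shares were closer, with Gbp7 at 39.98% in EM and 38.9% in PBS and Gbp2 at 16.6% in EM and 10.98% in PBS. These are shares of molecules counted and say nothing of transcript length.

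In microglia (115 EM and 197 PBS cells, median 1053 and 9007 UMIs) 6 of 9 members were at least 2-fold lower in EM, where 21.8% of the 8387 genes tested were, and 0 were 2-fold higher, where 8.95% of genes were. Gbp2b had 0 UMIs in EM and 198 in PBS microglia, at least 5.78-fold lower by the limit of 3 counts. Gbp7 was at 295 CPM in EM and 882 CPM in PBS (log2 ratio -1.58, from 49 and 1671 UMIs), and 16.9% of EM and 57.1% of PBS microglia held a UMI of it at 1000 UMIs (25.2% and 95.9% at full depth). Gbp8 (-2.55), Gbp4 (-2.35), Gbp5 (-1.42) and Gbp9 (-1.22, -2.87 to 0.04) were the others, and the EM values of Gbp4, Gbp8 and Gbp9 rest on 3, 3 and 5 UMIs. Gbp2 was at 482 CPM in EM and 666 CPM in PBS (-0.47) and Gbp3 had a ratio of -0.45. Gbp6, with 0 EM and 47 PBS UMIs, had a limit of 1.37-fold. Summed over the 9 members, microglia had 1043 CPM in EM and 2304 CPM in PBS (-1.14), and the members' median was -1.42 beside -0.14 for all genes tested. The microglia gate held different cells in the libraries: 87.0% of the EM cells lay in cluster 15 (100 EM and 4 PBS cells) and 78.2% of the PBS cells in cluster 18 (6 EM and 154 PBS cells), and no cluster had 100 of them from each library. Microglia markers summed to 4840 CPM in the EM and 1542 CPM in the PBS cells of the gate. The 6 lower members therefore describe the gated cells, and a change within microglia and a different mix of cells cannot be told apart.

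Across classes, Gbp2 in EM was highest in monocyte/macrophage cells (1165 CPM), then microglia (482 CPM) and dendritic cells (277 CPM). CD8, CD4 and regulatory T cells followed at 229, 209 and 202 CPM, with overlapping intervals. NK cells (98.5 CPM) and basophils or mast cells (96.3 CPM) did not differ beyond counting error. In PBS the order was led by neutrophils (1804 CPM), a class with 519 cells in PBS and 0 in EM, followed by microglia (666 CPM), dendritic cells (550 CPM) and monocyte/macrophage cells (442 CPM). PBS neutrophils held 55.4% of their family UMIs on Gbp2, 6.63% on the chromosome 5 members and 0.138% on Gbp2b. Their Gbp2b level, 4.48 CPM, was under the 80.8 CPM that carried-over macrophage RNA was estimated to give. That estimate, made from macrophage markers, is thus too high in this class.

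For Gbp7 the order in EM began with regulatory T cells (690 CPM), followed by monocyte/macrophage (528 CPM), CD8 T (524 CPM) and CD4 T cells (482 CPM), and the intervals of these other classes overlap. In PBS it began with microglia (882 CPM), neutrophils (763 CPM), monocyte/macrophage cells (634 CPM) and regulatory T cells (543 CPM), with no overlap between neighbours. Gbp5 was highest in EM monocyte/macrophage (162 CPM) and dendritic cells (119 CPM), which overlap, and in PBS neutrophils (334 CPM). Gbp3 was highest in EM monocyte/macrophage cells (248 CPM) and, in PBS, in regulatory T cells (191 CPM) and microglia (181 CPM), which overlap.

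The chromosome 5 members were led by T cells in EM. Gbp4 was at 181 CPM in regulatory T, 176 CPM in CD8 T and 155 CPM in CD4 T cells, which overlap, and Gbp8 at 127, 119 and 113 CPM in CD8, regulatory and CD4 T cells, which overlap as well. Gbp9 was highest in CD8 T cells (133 CPM), and Gbp6 was at 42.2, 41.2 and 39.7 CPM in CD8, regulatory and CD4 T cells. In PBS, Gbp4 (220 CPM) and Gbp8 (256 CPM) were highest in monocyte/macrophage cells, above the next class without overlap. Gbp9 there (99.5 CPM) did not differ beyond counting error from B cells (96.8 CPM), and Gbp6 was at 25.1 CPM in regulatory T cells, 24.8 CPM in microglia and 21.9 CPM in monocyte/macrophage cells, which overlap.

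Dendritic cells, with 330 EM and 91 PBS cells, are given as levels only. In these Gbp2 was at 277 CPM in EM and 550 CPM in PBS. Within EM dendritic cells, Gbp5 was at 338 CPM (263 to 429) in the migratory ones, which carry antigen to lymph nodes, and at 45.8 CPM (29.9 to 67.1) in cDC1, which present antigen to CD8 T cells. Gbp2 was at 542 CPM in the migratory ones and 125 CPM in cDC1. EM plasmacytoid dendritic cells, a major source of type I interferons in viral infection, had 64.3% of their family UMIs on the chromosome 5 members and 16.7 CPM of Gbp2. EM basophils or mast cells had 0 Gbp4 UMIs in 166 cells, which allows up to 7.05 CPM, 258 CPM of Gbp7 and 2.99% of family UMIs on chromosome 5 members. PBS held 2 plasmacytoid and 4 basophil or mast cells, too few for a level.

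Likeness between genes was taken as Pearson's r of log2(CPM + 1) over 17 points, each a class in a library, among 9776 genes. The points share libraries and depth, so r is a description. Gbp4 and Gbp8, which overlap in the genome, were most like each other (r = 0.97), followed for Gbp4 by Noc4l (0.90) and Pelp1 (0.87) and for Gbp8 by Pelp1 (0.88) and Atg5 (0.85). Gbp9 was most like Gbp8 (0.84), Gbp4 (0.81) and Gbp6 (0.79), and Gbp6 like Smim20, Ssbp1 and Zbtb2 (0.84 each). Gbp2 was most like Cxcl10 (0.91), Slfn2 (0.90) and Il1rn (0.89), and its r with Gbp4 was 0.02. Gbp5 was most like St3gal5 (0.90), Nod2 (0.89) and Cxcl10 (0.86). Gbp2b was most like C6 (0.88), Casp12 (0.85) and Gdpd1 (0.84). Gbp3 was most like Atp2b1 (0.83), Glrx (0.82) and Srgap2 (0.82), and Gbp7 like Bnip3 (0.83), Rtn3 (0.82) and Sgk1 (0.78).

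Single monocyte/macrophage cells at 1000 UMIs were then split by whether they held a UMI of Rsad2, an antiviral target of type I interferon, or of Cxcl9, a chemokine that interferon gamma induces. In EM, the 98 cells with Rsad2 had 2439 CPM of Gbp2 (2139 to 2768) and the 256 cells without it 664 CPM (568 to 772). Gbp9 was at 194 CPM in the cells with Rsad2 and 43.0 CPM in those without, Gbp5 at 316 and 89.8 CPM, Gbp7 at 969 and 375 CPM, and Gbp3 at 469 and 188 CPM. The other members had overlapping intervals, with Gbp4 at 133 CPM in the cells with Rsad2 and 66.4 CPM in those without, Gbp8 at 102 and 66.4 CPM, Gbp6 at 10.2 and 11.7 CPM and Gbp2b at 0 and 19.5 CPM. Ly6c2 monocytes were 75.5% of the EM cells with Rsad2 and 22.7% of those without. Among the EM Ly6c2 monocytes alone, Gbp2 was at 2757 CPM (2391 to 3162) in the 74 cells with Rsad2. The 58 without it had 1121 CPM (865 to 1428). Intervals did not overlap there for Gbp7 (1081 and 276 CPM), Gbp5 (324 and 69.0 CPM) and Gbp3 (473 and 172 CPM) either. Those of Gbp9 (203 and 121 CPM) and the remaining members overlapped. Among the other EM cells, Gbp2 was at 1458 CPM in the 24 cells with Rsad2 and 530 CPM in the 198 without. The intervals of every other member, Gbp3, Gbp5, Gbp7 and Gbp9 included, overlapped there. By Cxcl9, the 75 EM cells with it had 1813 CPM of Gbp2 and 560 CPM of Gbp7, and the 279 cells without it 978 and 534 CPM. In PBS, the 719 cells with Cxcl9 had 549 CPM of Gbp2b, 599 CPM of Gbp2 and 298 CPM of Gbp4, and the 763 cells without it 315, 431 and 210 CPM. The 55 PBS cells with Rsad2 had 455 CPM of Gbp2b and the 1427 cells without it 427 CPM, and for Gbp2 the levels were 891 and 498 CPM. Gbp2b in PBS thus differed between cells with and without Cxcl9, and its counting intervals overlapped between cells with and without Rsad2. The Rsad2 value rests on 25 UMIs in 55 cells (294 to 671 CPM), so the splits differ in precision and were not compared. The split by Cxcl9 was not repeated within subsets, whose Gbp2b levels in PBS differed.

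**Figure D5:**
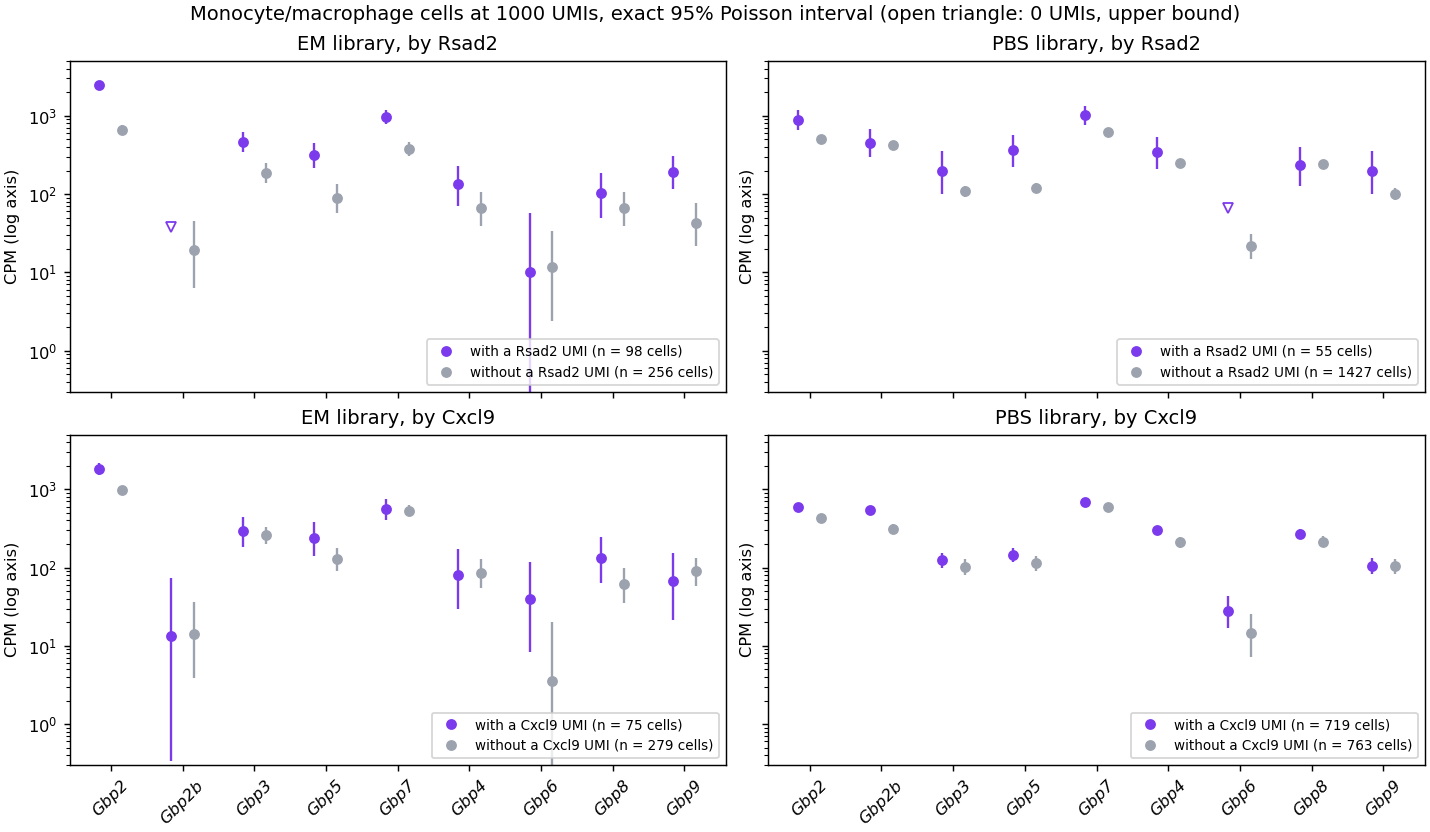
Level of each gene (CPM, log axis, exact 95% Poisson intervals) in monocyte/macrophage cells at 1000 UMIs with a UMI of Rsad2 (upper panels) or Cxcl9 (lower panels), in violet, and without it, in grey, EM left and PBS right. Gbp2 is at 2439 CPM in EM cells with Rsad2 and 664 CPM in those without, and Gbp2b is at 549 CPM in PBS cells with Cxcl9 and 315 CPM in those without.

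The other genes of the interferon pathway, from lists, were read by the same 2-fold rule in monocyte/macrophage cells, where the median of all genes was -0.19, and 8.07% of genes were higher and 18% lower. Of 19 type I interferon targets, 19 were higher in EM and 0 lower, with a median log2 ratio of 3.21. The highest were Isg20 (5.57), Ifit3b (5.07) and Slfn4 (4.94), and the lowest Oas1a (1.76), Rtp4 (2.32) and Zbp1 (2.40). Rsad2 was at 874 CPM in EM and 48.3 CPM in PBS. In Ly6c2 monocytes it was at 1990 CPM in EM and 57.2 CPM in PBS. In C1q cells it was at 267 and 39.8 CPM with Arg1 or Mrc1, and at 131 and 36.6 CPM without. In the class as a whole, 1 of 13 interferon gamma targets was higher and 5 were lower (median -0.22). Nos2, which makes nitric oxide, had 2 UMIs in EM and 1209 in PBS (-5.57), Ubd 0 in EM and 241 in PBS (-2.66 at the limit), and Cxcl9 was at 627 CPM in EM and 1803 CPM in PBS (-1.52). Cxcl10, which type I interferon also induces, was at 1604 CPM in EM and 444 CPM in PBS (1.85), and next came the immunoproteasome subunit Psmb9 (0.91) and Ly6a (0.83).

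Of 12 other interferon-inducible GTPases, 6 were higher and 1 lower (median 0.89): the highest were Tgtp2 (2.26), 9930111J21Rik2 (2.15) and Igtp (1.49), and the lowest F830016B08Rik (-1.78), Iigp1 (-0.67) and Gm4841 (0.02). Of 10 inflammasome genes and partners of the family, 1 was higher, the protease Casp1 (1.34), and 1 lower, the cytokine Il1b (-1.95), with a median of 0.42, which are shares near those of all genes. Next to them stood Naip2 (0.79) and Il18 (0.77) at the upper end and Nlrp3 (-0.99) and Aim2 (-0.39) at the lower end. By subset the other GTPases differed. In Ly6c2 monocytes 7 of 10 were higher and 0 lower (all genes 8.2% and 25.2%). In C1q cells with Arg1 or Mrc1, 3 of 12 were higher and 1 lower (all genes 12.6% and 15.7%). In C1q cells without, 0 of 11 were higher and 1 lower (all genes 8.96% and 21.8%). The medians were 1.26, 0.84 and -0.32 in that order.

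Among signalling genes and transcription factors, the highest were Irf7 (3.14), Irf9 (1.28) and Stat2 (1.13), and the lowest Ciita (-0.59), Socs1 (-0.56) and Batf2 (-0.33). Irf1, the factor through which interferon gamma induces several members, was at 328 CPM in EM and 355 CPM in PBS monocyte/macrophage cells (-0.11). The subsets differed: Irf1 was at 635 CPM in EM and 663 CPM in PBS Ly6c2 monocytes (-0.06), at 148 CPM in EM and 324 CPM in PBS C1q cells with Arg1 or Mrc1 (-1.14), and at 93.5 CPM in EM and 480 CPM in PBS C1q cells without (-2.36). In microglia it was at 78.4 CPM in EM and 263 CPM in PBS (-1.75). None of the 4 receptor genes tested was past 2-fold (median 0.37; Ifngr1 -0.91, Ifnar1 0.28, Ifngr2 0.46, Ifnar2 0.57). Of 5 negative regulators, 1 was higher, Usp18 (3.65), with Socs3 at 0.41, Ptpn2 at -0.84 and Pias1 at -0.60 (median -0.56).

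In T cells, 17 of 19 type I targets were higher and 1 lower (median 2.85), 9 of 12 other GTPases were higher and 0 lower (1.63), and 1 of 11 interferon gamma targets was higher and 0 lower (0.10), where 5.34% of all genes were higher and 11.4% lower. In microglia 13 of 17 type I targets were higher and 0 lower (1.88), and 2 of 13 interferon gamma targets were higher and 4 lower (-0.55), where 8.95% of all genes were higher and 21.8% lower. Ifng, which encodes interferon gamma, was at 229 CPM in EM and 116 CPM in PBS T cells, at 183 CPM in EM and 27.7 CPM in PBS NK cells, and had 3 UMIs in EM and 15 in PBS monocyte/macrophage cells.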

How the data were processed

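Per the file headers, the authors deposited UMI counts of genes in single barcodes, as whole numbers that were not normalized. CASAVA 1.8, STARsolo and the mm10 genome are named in the submitters' processing notes, while the gene annotation and how barcodes were called as cells were not given in the sources used here. Members and gene lists were chosen with earlier results of these data known.

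Cells with at least 500 UMIs, at least 200 genes and at most 20% mitochondrial UMIs were kept. A cell was put in a class when at least 2 of its markers had a UMI and it had the highest share of markers found. Cells called macrophage or microglia were pooled. They were named microglia with at least 2 microglia markers and a UMI of Tmem119 or Sall1, and monocyte/macrophage otherwise. Whether a cell meets this rule depends on its depth. A cell was set aside as mixed when a further lineage reached 50% of the highest share, which also removes many doublets. No doublet caller was run. Comparisons were limited to classes of 100 or more cells in both libraries, and levels are given from 50 cells. UMIs were summed per class and library, scaled to CPM and compared as a log2 ratio without pseudocount, with exact conditional binomial intervals; counts have exact Poisson and shares exact Clopper-Pearson 95% intervals. A ratio was counted as a difference at 20 or more UMIs in both libraries together and at least 2-fold, and a count of 0 was given the limit of 3 counts. Total UMIs were 19385631 in EM and 45043934 in PBS, so EM values are the less precise. The ratio step was tested on simulated counts with 200 changed genes. Named were all 9 members, Gbp10, the 3 highest and 3 lowest genes of each list in monocyte/macrophage cells with at least 100 UMIs, Irf1, Ifng, Cxcl9 and Rsad2, and the 3 genes most like each member; 1 gene that this rule names is not reported here. Alternatives covered the classes (Leiden clusters from scanpy 1.11.5 with leidenalg 0.10.2), filters, markers, depth, weighting, scaling and threshold. Python 3.11.15 with numpy 2.4.6, scipy 1.17.1 and pandas 2.3.3 was used.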

Additional observations from a re-analysis of the deposited data

Results flagged for a closer look

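Among T, NK, monocyte/macrophage and microglia cells, 3 members were past 2-fold in opposite directions in different classes. The difference between the classes was not tested. The share of all genes that did the same was not computed, so this count cannot be weighed against all genes. Gbp6 had log2 ratios of EM to PBS of 1.46 in T cells and 2.20 in NK cells, but -1.06 in monocyte/macrophage cells. Its NK ratio rests on 4 PBS UMIs and its monocyte/macrophage ratio on 12 EM UMIs. The latter fell short of 2-fold under several alternatives. Gbp7 stood at 1.07 in T cells and 1.23 in NK cells, but at -1.58 in microglia. Gbp9 stood at 1.17 in NK cells and at -1.22 in microglia, where its EM value rests on 5 UMIs (-2.87 to 0.04). With T cell subsets counted, Gbp8 also went both ways. It stood at 1.15 in regulatory T cells, -1.68 in monocyte/macrophage cells and -2.55 in microglia (3 EM UMIs). The classes come from the same pair of libraries, and the myeloid classes are those with the widest gap in depth. Within T cell clusters the ratio of Gbp7 ran from -0.23 to 1.01, and EM and PBS microglia lay mostly in different clusters.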

How the results depend on the processing

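Of the 17 member ratios past 2-fold in T, NK, monocyte/macrophage and microglia cells, 163 values were computed under alternatives: 162 kept their sign and 134 stayed past 2-fold. Within clusters of 100 or more cells per library, Gbp2, Gbp6 and Gbp7 in T cells fell short of 2-fold in most clusters, Gbp7 being -0.23 in cluster 6, and in monocyte/macrophage cells Gbp4 fell short in both clusters and Gbp2, Gbp6 and Gbp8 in cluster 12. The other exceptions were Gbp9 in NK cells with Leiden classes (0.81); Gbp2 in monocyte/macrophage cells with equal weight per cell (0.60), with cells free of other lineages' markers (0.62) and without Ly6c2 monocytes (0.39); Gbp6 there in 5 settings (-0.95 to -0.76); Gbp2b in microglia at 1000 UMIs (-0.15 at the limit); and Gbp9 in microglia in 3 settings (-0.94 to -0.63). The summed level of the 9 members in monocyte/macrophage cells (-0.04) had no stable sign: it was 0.12 with Leiden classes, 0.20 in cells of 1000 or more UMIs and no more than 10% mitochondrial, 0.17 with median-of-ratios scaling, 0.15 in cells with no microglia marker, -0.47 with equal weight per cell, -0.41 without other lineages' markers, -0.78 without Ly6c2 monocytes, 0.61 in cluster 9 and -0.40 in cluster 12. In T cells it was 1.06 with Leiden classes, 1.15 with median-of-ratios scaling, and 0.29, 0.41, 0.33, -0.038 and 1.10 within clusters 0, 1, 2, 6 and 8, and in NK cells 1.05 without other lineages' markers. The settings without Ly6c2 monocytes, with no microglia marker and within clusters, and the split of Rsad2 cells by Ly6c2, were chosen after seeing the data, and the cause of these shifts was not tested. At a 1.5-fold threshold 8 members instead of 3 were higher in T cells. The share of all genes past that looser threshold was not computed. Leaving out cells with other lineages' markers was not run in microglia, since too few cells remained. Depth limits the EM myeloid classes most, where Gbp4, Gbp6, Gbp8, Gbp9 and Gbp2b rest on few UMIs. No paired analysis was possible because each treatment has 1 library.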

Other observations

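Gbp10, which was not in the set, had 88 UMIs in EM and 22 in PBS T cells, or 6.89 CPM and 1.05 CPM (log2 ratio 2.72). Of its 50-base transcript stretches 84.1% also occur in another gene, most often Gbp6, so its counts and those of Gbp6 are uncertain. EM regulatory T cells had the highest Gbp10 level of the classes measured, 10.9 CPM from 18 UMIs, with an interval that overlaps that of EM CD4 T cells (5.91 CPM), and EM monocyte/macrophage cells had 0 UMIs.

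At least 1 member was detected in 65.8% of EM and 48.4% of PBS T cells at 1000 UMIs, and in 72.2% of EM and 63.6% of PBS regulatory T cells. Cells with 3 or more members made up 11.4% of EM and 2.55% of PBS CD8 T cells.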
